A study of Mus musculus with 20 samples.

Results

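The endoplasmic reticulum (ER) stress and integrated stress response genes described here are Atf4, Chac1, Asns, Trib3, Ddit3, Ddit4, Xbp1, Hspa5, Herpud1 and Dnajb9, 10 of the 24513 genes in the count files. They were chosen by name, as known members of these responses, with earlier results of these data known. Polyadenylated RNA of the hippocampus was sequenced from male C57BL/6J mice aged 9 months, as 76-nt read pairs, in 20 libraries. The labels give 4 genotypes with 5 libraries each: PS19/C3aR KO, PS19, C3aR KO and WT. The PS19 transgene encodes a human tau protein mutated as in inherited frontotemporal dementia, under the promoter of the mouse prion protein gene, which is active in neurons and in other cells. C3aR, the product of C3ar1, is the receptor for a fragment of complement component C3, and the labels do not say how it was deleted or whether the loss was confined to some cells. The comparisons ask what the tau transgene did to hippocampal RNA and how libraries labelled C3aR KO differed from the others, with and without that transgene.

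When unfolded protein builds up in the ER, membrane sensors start the unfolded protein response. IRE1 splices Xbp1 RNA, ATF6 is cut to release a transcription factor, and PERK phosphorylates the translation factor eIF2. Products of the response include the chaperone BiP, encoded by Hspa5, its co-chaperone ERdj4, encoded by Dnajb9, and Herpud1, which serves the removal of misfolded ER proteins. Phosphorylation of eIF2 is shared with kinases that sense amino acid shortage, viral RNA and haem shortage, and together they form the integrated stress response. It lowers general translation and raises translation of ATF4, which switches on genes for amino acid supply such as Asns, and Chac1, Trib3 and Ddit3. Much of this control acts on translation and splicing, and the counts measure only the summed exons of each gene's RNA.

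All 10 genes passed the filter on low counts. Gene counts came to 33885850 to 47828111 per library, and the sparsest gene, Trib3, still had 10 to 41 counts in each. The share of counts from Rn45s, a ribosomal RNA precursor locus, was 1.04 to 3.03% in the libraries labelled PS19/C3aR KO, 0.873 to 3.65% in PS19, 0.923 to 4.34% in C3aR KO and 2.85 to 4.48% in WT. PS19 and WT overlapped in this share only through PS19 5. A fit that holds the share therefore cannot fully tell it apart from genotype in PS19 minus WT. C3ar1, the gene named in the knockout label, was not low in the libraries that carry it: it had a level of 14.96 to 18.7 CPM (counts scaled to each library's normalised total) in PS19/C3aR KO, 4.98 to 13.7 in PS19, 14.1 to 18.0 in C3aR KO and 1.73 to 2.42 in WT. The groups are therefore called by their labels below, and no direction is drawn from the loss of the receptor itself. Prnp, whose promoter drives the transgene, had 1828 to 2026 CPM in PS19/C3aR KO and 1838 to 1917 in PS19, against 825 to 871 in C3aR KO and 825 to 949 in WT. The neuronal markers Rbfox3 and Slc17a7 were present in every library, at 245 to 313 and 1154 to 1634 CPM, and Prox1, a marker of dentate gyrus granule cells, at 22.2 to 68.8 CPM. In whole tissue, fewer cells of a type and less RNA per cell cannot be told apart.

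Known DNA elements of these responses were looked for in the promoters. The following stretches come from RefSeq windows on GRCm38.p6 that run from 250 bases before to 50 after each gene's start, and all 10 genes had one. They show an example of each element found among the 10 genes, and a pair of genes near Hspa5 in the correlations described further on. Capitals mark the match to the ER stress response element (ERSE, CCAAT and CCACG with 9 bases between them, a site for ATF6 with NF-Y), to ERSE-II (ATTGG and CCACG with 1 base between them) or to the C/EBP-ATF response element (TGATGNAA, a site for ATF4 with a C/EBP partner), searched on both strands. Each is printed on the strand of its gene.
Hspa5: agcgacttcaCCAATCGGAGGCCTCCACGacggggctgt
Creld2: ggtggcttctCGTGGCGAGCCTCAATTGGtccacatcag
Pdia6: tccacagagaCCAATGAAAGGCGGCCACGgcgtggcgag
Herpud1: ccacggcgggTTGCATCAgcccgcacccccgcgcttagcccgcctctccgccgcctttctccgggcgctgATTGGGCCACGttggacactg
Chac1: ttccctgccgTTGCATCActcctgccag
Asns: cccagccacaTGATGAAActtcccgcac
Hspa5 lies at chr2:34772090-34776529 and its ERSE spans positions -65 to -47 from the start, in the stretch chr2:34772015-34772053 of the plus strand. Creld2 and Pdia6, 2 genes of ER protein folding, were added after their values were seen. Their stretches are chr15:88819510-88819548, where the element reads on the opposite strand, and chr12:17266481-17266519. Manf and Sdf2l1, which correlated more closely with Hspa5, were not among the chaperones found to hold an ERSE. Only 19 of the 22 listed chaperones had a window, and whether Manf and Sdf2l1 had one was not examined. The Herpud1 stretch, chr8:94386307-94386397, holds both an ERSE-II and a C/EBP-ATF element. The Chac1 stretch is chr2:119351039-119351066 and the Asns stretch, on the minus strand, is chr6:7693215-7693242.

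Of the 10 genes, Hspa5 alone held an ERSE, which was found for 0.137% of the 27025 genes in the promoter table. Herpud1 alone held an ERSE-II, found for 0.0444% of genes. A C/EBP-ATF element stood in the windows of Trib3, Chac1, Asns and Herpud1, against 4.51% of genes, and in Trib3 it lay after the start. The XBP1 element core TGACGTGG was in none of the 10 windows and in 0.714% of genes. None of the 4 motifs matched in the windows of Atf4, Ddit3, Xbp1, Dnajb9 and Ddit4, which says only that these letters are not in these windows. Among the lists described below, 7 of the 19 ER chaperones and folding enzymes with a window held an ERSE, and 5 of the 8 aminoacyl-tRNA synthetases with a window held a C/EBP-ATF element, namely Aars, Gars, Tars, Yars and Iars.

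Atf4, the transcription factor at the centre of the integrated stress response, was the only one of the 10 genes called between the libraries labelled PS19/C3aR KO and PS19. Its normalised level was 118, 128, 128, 139 and 119 CPM in the 5 PS19/C3aR KO libraries, against 85.0, 88.2, 77.0, 105 and 80.7 CPM in the 5 PS19 libraries. All 5 PS19/C3aR KO libraries lay above the highest PS19 library, PS19 4. The log2 fold change was 0.53 (SE 0.11, 95% interval 0.31 to 0.76, adjusted p = 0.0421, edgeR quasi-likelihood test with Benjamini-Hochberg adjustment over all 16657 genes tested), a 1.45-fold higher level. In this comparison 0.252% of all genes were called, 12 higher and 30 lower, and the median log2 fold change of the 10 stress genes was 0.02 beside -0.00413 for all genes.

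In the libraries without the transgene, Atf4 had 100.0, 127, 114, 117 and 107 CPM in C3aR KO and 115, 99.0, 103, 72.7 and 77.5 CPM in WT. WT thus held 3 libraries near the C3aR KO level and 2 lower libraries: WT 4 lay below every PS19 library and WT 5 below all but PS19 3. Group means were 126 ± 8.56 CPM in PS19/C3aR KO, 87.2 ± 10.9 in PS19, 113 ± 10.2 in C3aR KO and 93.5 ± 17.8 in WT (SD, n = 5 each). On the log2 scale C3aR KO minus WT was 0.27, PS19 minus WT was -0.10 and PS19/C3aR KO minus C3aR KO was 0.16, each with an SE of 0.11 and an adjusted p of 0.760, 0.641 and 0.712. PS19 and WT, neighbours in the order of levels, overlapped over most of their range.

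The size of the Atf4 difference between PS19/C3aR KO and PS19 kept to a log2 fold change of 0.49 to 0.61 in 20 alternative analyses, and its adjusted p ran from 0.00105 to 0.121, below 0.05 in 9 of them. Leaving out PS19 1, 2 or 3 gave adjusted p = 0.105, 0.0872 and 0.121, and leaving out PS19/C3aR KO 2, 3, 4 or 5 gave 0.116, 0.0616, 0.0910 and 0.0769. The interaction, which asks whether the tau effect differed between libraries with and without the C3aR KO label, was 0.26 for Atf4 (95% interval -0.06 to 0.58, adjusted p = 1). Summed levels of 12 microglia markers were 516 to 919 CPM in PS19/C3aR KO and 608 to 1343 CPM in PS19. In PS19/C3aR KO minus PS19, 0 of 12 were called by edgeR and 0 of 12 had a positive fold change. Their median log2 fold change was -0.71, and 11 of 12 had an unadjusted p below 0.05 in the edgeR test, beside 2416 of all 16657 genes. The part of these markers in the Atf4 difference was not tested.

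**Figure D1:**
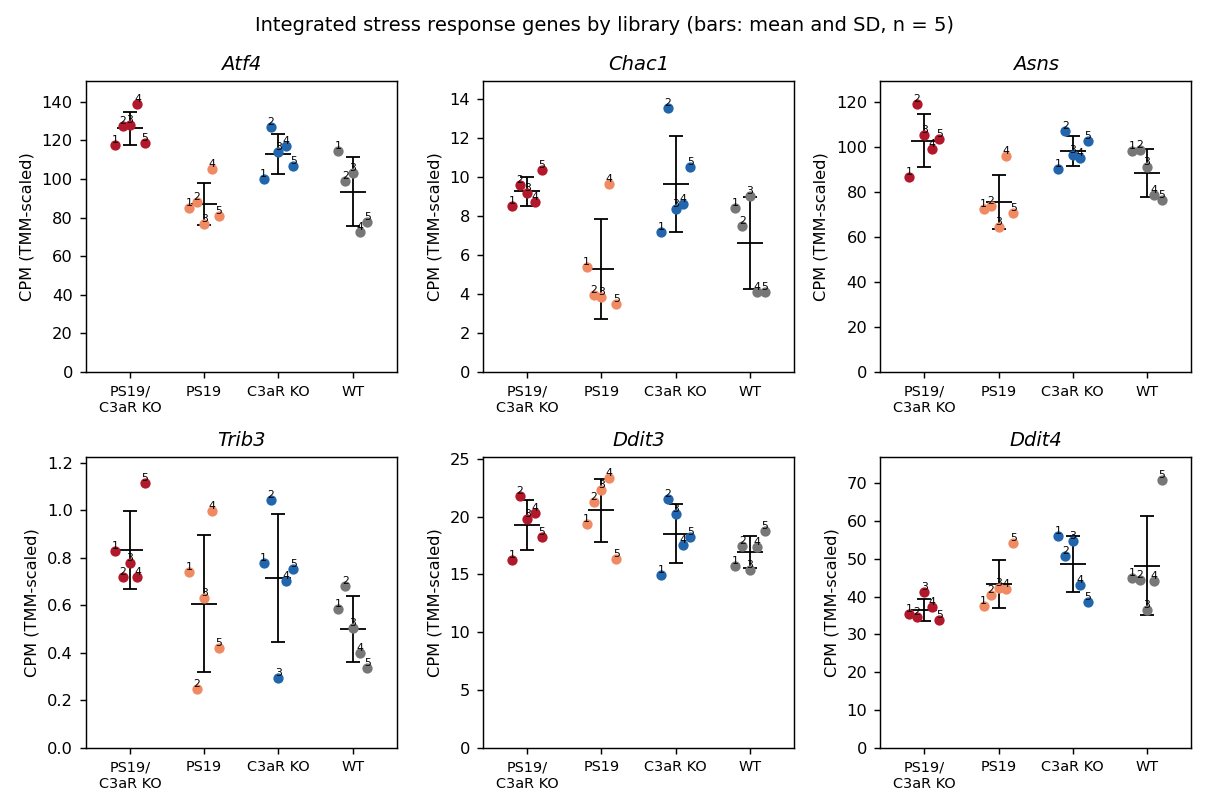
TMM-scaled CPM (linear axis from 0) of the 6 integrated stress response genes in each of 20 libraries, with replicate numbers beside the points and bars for the mean and SD of 5 libraries. For Atf4 the PS19/C3aR KO points lie above every PS19 point, and for Chac1 and Asns PS19 4 stands apart from the other 4 PS19 libraries, near the PS19/C3aR KO level.

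Chac1 and Asns are targets of ATF4, and neither passed the test between PS19/C3aR KO and PS19. Chac1 encodes an enzyme that breaks down glutathione. It had 8.53, 9.62, 9.20, 8.72 and 10.4 CPM in PS19/C3aR KO, against 5.42, 3.98, 3.87, 9.67 and 3.47 CPM in PS19. PS19 4 lay within the PS19/C3aR KO range and the other 4 PS19 libraries lay below it. In C3aR KO it had 7.21, 13.6, 8.36, 8.61 and 10.5 CPM, against 8.43, 7.48, 9.01, 4.12 and 4.10 CPM in WT, where WT 4 and WT 5 were again the low libraries. PS19/C3aR KO minus PS19 gave a log2 fold change of 0.81 (SE 0.27, 95% interval 0.25 to 1.37, adjusted p = 0.163), which did not pass the test.

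Asns, which makes asparagine, had 86.5, 119, 105, 99.0 and 104 CPM in PS19/C3aR KO, against 72.5, 73.5, 64.4, 95.8 and 70.8 CPM in PS19. Of the PS19/C3aR KO libraries, 4 lay above every PS19 library. Between these groups the log2 fold change was 0.45 (SE 0.10, 95% interval 0.23 to 0.66) with an adjusted p of 0.0636 by edgeR, just above the threshold. It passed in 6 of 20 alternatives, among them without PS19 4 (adjusted p = 0.0176), without PS19 5 (0.0478) and without PS19/C3aR KO 1 (0.0347). In C3aR KO it had 90.2, 107, 96.5, 95.2 and 103 CPM, against 98.2, 98.7, 90.9, 78.6 and 76.2 CPM in WT. In PS19 minus WT the log2 fold change of Asns was -0.23 (SE 0.10, adjusted p = 0.157), and without PS19 4 it was -0.33 (adjusted p = 0.0301).

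Trib3, a pseudokinase induced by ATF4 and CHOP, was sparse and scattered. It had 0.828, 0.720, 0.776, 0.721 and 1.11 CPM in PS19/C3aR KO and 0.739, 0.247, 0.633, 0.996 and 0.420 CPM in PS19. It had 0.777, 1.04, 0.296, 0.701 and 0.751 CPM in C3aR KO and 0.583, 0.683, 0.504, 0.399 and 0.338 CPM in WT. All 4 groups overlapped. Its log2 fold change was 0.45 (95% interval -0.22 to 1.12) between PS19/C3aR KO and PS19 and 0.51 (95% interval -0.18 to 1.20) between C3aR KO and WT, with adjusted p of 0.560 and 0.891. Counts were 10 to 41 per library, and both intervals include 0 along with changes in either direction.

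Ddit3 encodes CHOP, a transcription factor linked to cell death under lasting ER stress. It had 16.2, 21.8, 19.8, 20.3 and 18.2 CPM in PS19/C3aR KO, 19.4, 21.3, 22.3, 23.3 and 16.4 CPM in PS19, 14.9, 21.6, 20.2, 17.6 and 18.3 CPM in C3aR KO, and 15.7, 17.5, 15.4, 17.4 and 18.8 CPM in WT. In PS19, 4 of 5 libraries lay above every WT library, and PS19 5 lay within the WT range. PS19 minus WT gave a log2 fold change of 0.28 (SE 0.11, 95% interval 0.06 to 0.50, adjusted p = 0.101), and it was 0.35 (adjusted p = 0.0244) without PS19 5 and 0.11 (adjusted p = 0.662) with the Rn45s share in the fit. With the C3aR KO label on both sides it was 0.06 (95% interval -0.16 to 0.28, adjusted p = 0.943). The Ddit3 locus, chr10:127290793-127296291, overlaps the spans of Mbd6 and Mars in the annotation, and whether their exons overlap was not examined. The strand setting of the counting is not given in the sources used here. It is therefore not known whether pairs over any shared exons were counted or set aside as meeting more than 1 gene.

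Ddit4 encodes REDD1, an inhibitor of the growth kinase mTORC1 that is induced by ATF4, by hypoxia and by glucocorticoids. It had 35.3, 34.6, 41.1, 37.3 and 33.9 CPM in PS19/C3aR KO and 37.4, 40.5, 42.3, 41.9 and 54.1 CPM in PS19. It had 56.1, 50.6, 54.6, 43.0 and 38.7 CPM in C3aR KO and 44.8, 44.3, 36.5, 44.2 and 70.8 CPM in WT. PS19/C3aR KO had the lowest mean and WT 5 was the highest library. The difference of PS19/C3aR KO minus C3aR KO was -0.41 on the log2 scale (SE 0.14, 95% interval -0.72 to -0.11, adjusted p = 0.302). Averaged over both tau comparisons it was -0.28 (SE 0.10, adjusted p = 0.0708), and this value passed the test in 4 of 29 alternatives, with an adjusted p of 0.0285 to 0.192 and a log2 fold change of -0.33 to -0.20 over all of them. The 4 were DESeq2 and leaving out PS19 5 (adjusted p = 0.0285), C3aR KO 5 (0.0447) or WT 3 (0.0346).

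Dnajb9, the BiP co-chaperone ERdj4, was the only one of the 10 genes called between PS19 and WT, and the change was small. It had 41.8, 39.5, 38.3, 39.4 and 36.9 CPM in PS19, against 37.6, 35.7, 35.3, 34.2 and 35.6 CPM in WT. Of the PS19 libraries, 4 lay above every WT library. Its log2 fold change was 0.14 (SE 0.04, 95% interval 0.05 to 0.22, adjusted p = 0.0362), a 1.10-fold higher level. With 10.8% of all genes called in this comparison, 7.5% higher and 3.32% lower, 1 call in 10 genes is close to the background. The median log2 fold change of the 10 genes was -0.01, the same to 2 decimals as for all genes.

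Dnajb9 had 37.0, 39.2, 38.8, 39.2 and 39.1 CPM in PS19/C3aR KO, against 35.3, 37.4, 35.1, 38.8 and 37.6 CPM in C3aR KO. This difference was 0.07 on the log2 scale (SE 0.04, adjusted p = 0.640). The average PS19 effect, the mean of both tau comparisons, was 0.10 (SE 0.03, adjusted p = 0.0207), and Dnajb9 was the only one of the 10 called there, beside 13.7% of all genes. The PS19 minus WT call held in 8 of 20 alternatives, with an adjusted p of 0.0120 to 0.308. It was lost without PS19 1 (0.107), PS19 2 (0.0649), PS19 3 (0.0514) or PS19 4 (0.0778) and without WT 2 (0.0600), WT 3 (0.0689), WT 4 (0.105) or WT 5 (0.0651). A fit that also held the Rn45s share gave 0.10 (adjusted p = 0.308) in PS19 minus WT and 0.09 (adjusted p = 0.0726) for the average effect. In PS19 minus WT that share cannot be fully told apart from genotype. All 12 microglia markers and 7 of 8 astrocyte markers also rose in PS19 minus WT, with summed microglia levels of 608 to 1343 CPM in PS19 and 420 to 464 CPM in WT, and their part in this result was not tested.

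**Figure D2:**
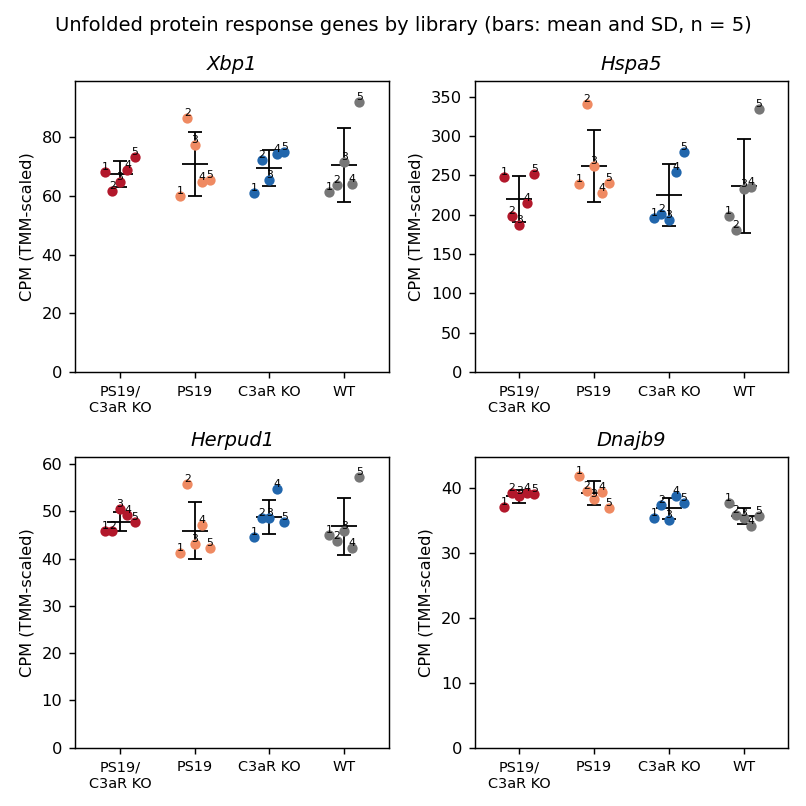
TMM-scaled CPM (linear axis from 0) of the 4 unfolded protein response genes in each of 20 libraries, with replicate numbers beside the points and bars for the mean and SD of 5 libraries. PS19 2 and WT 5 are the highest libraries for Xbp1, Hspa5 and Herpud1, while Dnajb9 stays between 34.2 and 41.8 CPM.

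Hspa5, the chaperone BiP, which holds the sensors inactive until unfolded protein draws it away, was not called in any of the 6 comparisons. It had 248, 198, 187, 216 and 252 CPM in PS19/C3aR KO, 239.7, 341, 261, 228 and 240.6 CPM in PS19, 196, 201, 193, 254 and 279.8 CPM in C3aR KO, and 198, 180.3, 232, 235 and 335 CPM in WT. PS19 2 and WT 5 stood above all other libraries, in different genotypes. For Hspa5 the log2 fold change was 0.15 (95% interval -0.17 to 0.47, adjusted p = 0.614) in PS19 minus WT and, for PS19/C3aR KO minus PS19, -0.25 (95% interval -0.57 to 0.07, adjusted p = 0.482). The Hspa5 locus overlaps Rabepk, with the same limit on strand as for Ddit3.

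Xbp1, whose RNA is spliced by IRE1 into the active factor, had 68.1, 61.6, 64.8, 68.7 and 73.3 CPM in PS19/C3aR KO, 60.1, 86.4, 77.3, 64.8 and 65.5 CPM in PS19, 60.9, 72.1, 65.3, 74.3 and 75.0 CPM in C3aR KO, and 61.1, 63.7, 71.6, 64.2 and 91.8 CPM in WT. Spliced and unspliced forms are summed in these counts. Plasma cells depend on XBP1. Of their 6 markers, the 4 that passed the filter summed to 3.82 to 5.03 CPM in PS19/C3aR KO, 4.62 to 7.19 in PS19, 3.28 to 4.13 in C3aR KO and 3.88 to 4.73 in WT. Over all libraries Jchain had 0.150 to 2.40 CPM, and Mzb1, which did not pass the filter, had 0.0295 to 0.320 CPM. Of the 4 of these markers that passed the filter, 1 was called higher in PS19 minus WT, and their part in the Xbp1 level was not tested. All 4 group means lay between 67.3 and 70.8 CPM. PS19 minus WT gave a log2 fold change of 0.01, with a 95% interval of -0.22 to 0.23.

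Herpud1, a membrane scaffold of ER-associated degradation, had 45.8, 46.0, 50.6, 49.2 and 47.7 CPM in PS19/C3aR KO, 41.3, 55.8, 43.1, 47.2 and 42.2 CPM in PS19, 44.6, 48.7, 48.7, 54.7 and 47.7 CPM in C3aR KO, and 45.1, 43.8, 45.9, 42.2 and 57.2 CPM in WT. Again PS19 2 and WT 5 were the highest libraries. Its log2 fold change was -0.03 (95% interval -0.21 to 0.15) in PS19 minus WT and 0.06 (95% interval -0.12 to 0.24) in PS19/C3aR KO minus PS19, and neither passed the test.

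None of the 10 genes was called by edgeR in 3 of the 6 comparisons. In C3aR KO minus WT 0.06% of all genes were called, and limma-voom and DESeq2 each called 0 of the 10. By edgeR 1 of the 10, Atf4, had an unadjusted p below 0.05, beside 999 of all 16657 genes. In PS19/C3aR KO minus C3aR KO 0.006% of all genes were called, and limma-voom and DESeq2 again each called 0 of the 10. By edgeR 1 of the 10, Ddit4, had an unadjusted p below 0.05, beside 1617 of all 16657 genes. In both, 1 in 10 is close to the share of all genes. For the interaction 0.012% of all genes were called, and both other tools called 0 of the 10. By edgeR 0 of the 10 had an unadjusted p below 0.05, beside 691 of all 16657 genes. The interval of the interaction ran from -0.0047 to 0.59 on the log2 scale for Asns and from -0.53 to 0.09 for Ddit3. Effects within these bounds, 0 among them, cannot be told apart with 5 libraries a group. Comparisons that share a group share its libraries and are not independent, as PS19 does in PS19/C3aR KO minus PS19 and in PS19 minus WT.

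**Figure D3:**
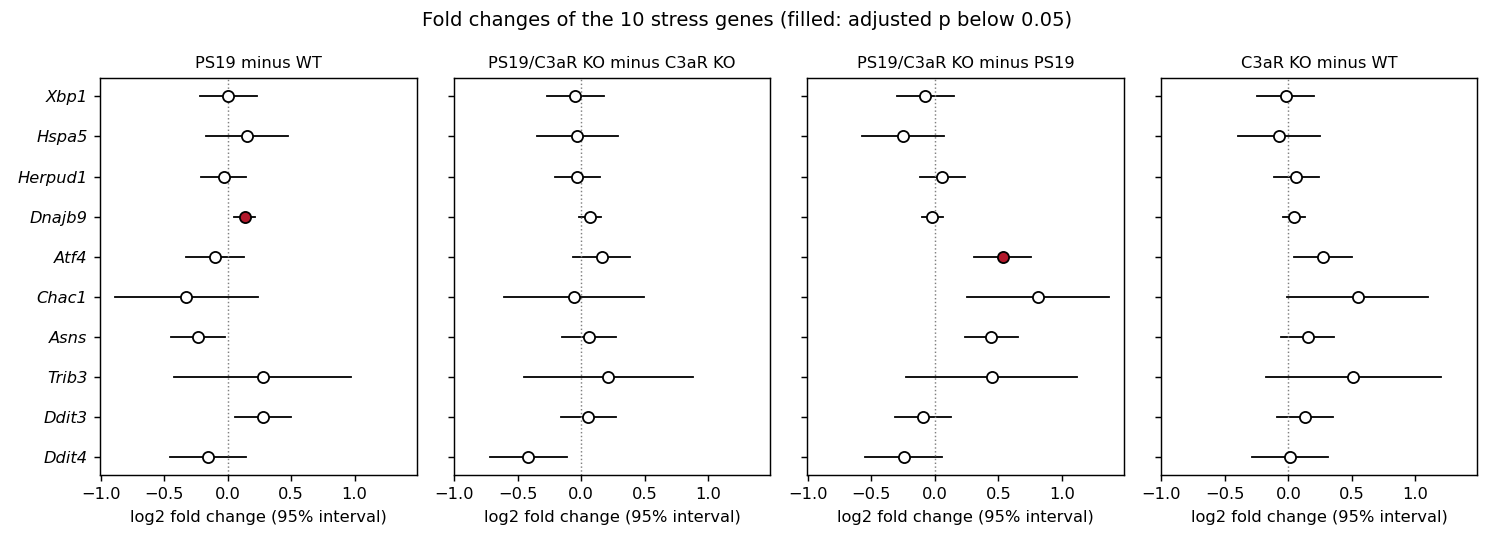
Log2 fold changes (horizontal axis) of the 10 stress genes in the 4 pairwise comparisons, as points with 95% intervals from the edgeR fit; filled points have an adjusted p below 0.05. Dnajb9 in PS19 minus WT (0.14) and Atf4 in PS19/C3aR KO minus PS19 (0.53) are the filled points.

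Other genes of the responses were read from lists chosen with earlier results of these data known. Each list is described only by its counts, beside the 10.8% of all genes called in PS19 minus WT and their median of -0.01. The 7 lists together gave 11 higher and 1 lower of 108 genes tested there, close to that share. Of 9 sensors and sensor proteases, 1 rose: Creb3l1, an ER-bound factor of the ATF6 family, with 6.61 ± 1.10 CPM in PS19 and 4.90 ± 0.785 in WT (log2 fold change 0.43, adjusted p = 0.0454). The call on Creb3l1 was lost in 10 of 20 alternatives, among them without PS19 1 (0.128), PS19 3 (0.128) or PS19 4 (0.0770) and without WT 2 (0.108), WT 3 (0.0910), WT 4 (0.0781) or WT 5 (0.0872). Of 15 genes for eIF2 kinases, phosphatase subunits and eIF2B, 1 rose: Eif2ak2, the interferon-induced kinase PKR that senses double-stranded RNA, with 16.6 ± 3.86 CPM in PS19 and 10.1 ± 0.71 in WT (log2 fold change 0.71, SE 0.17, adjusted p = 0.00977). The medians of both lists, 0.03 and -0.02, lay near that of all genes.

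Of 22 ER chaperones and folding enzymes, 2 rose in PS19 minus WT and 0 fell, and 19 had a positive fold change with a median of 0.12. P4hb, protein disulfide isomerase, had 124 ± 6.23 CPM in PS19 and 109 ± 5.15 in WT (log2 fold change 0.19, SE 0.04, adjusted p = 0.00501). Sdf2l1, an ER chaperone cofactor, had 12.3 ± 2.44 CPM in PS19 and 8.12 ± 2.55 in WT (log2 fold change 0.60, adjusted p = 0.0469), and its call was lost in 12 of 20 alternatives, among them without any 1 of PS19 1 to 4 (0.0617 to 0.130) or WT 1 to 4 (0.0947 to 0.111). Of 16 genes of ER-associated degradation, 2 rose. Edem1, which extracts misfolded glycoproteins for degradation, had 31.7 ± 2.16 CPM in PS19 and 25.1 ± 0.949 in WT (log2 fold change 0.34, SE 0.06, adjusted p = 0.00132) and was called in 20 of 20 alternatives. Herpud2, a relative of Herpud1, had 51.2 ± 1.31 CPM in PS19 and 45.8 ± 1.46 in WT (log2 fold change 0.16, adjusted p = 0.0274), and was lost without PS19 3 (0.0624), PS19 4 (0.0725), WT 4 (0.0780) or WT 5 (0.0557).

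Of 17 amino acid synthesis and transport genes of the ATF4 programme, 1 rose in PS19 minus WT. Psat1, of serine synthesis, had 114 ± 9.53 CPM in PS19 and 96.6 ± 6.65 in WT (log2 fold change 0.24, SE 0.06, adjusted p = 0.00925). Of 12 aminoacyl-tRNA synthetases, 1 fell: Wars, the tryptophan enzyme, with 83.8 ± 5.07 CPM in PS19 and 97.4 ± 5.38 in WT (log2 fold change -0.22, SE 0.06, adjusted p = 0.0224), a call that was lost with library totals alone (0.104) and without PS19 2 (0.0614), PS19 3 (0.0625), WT 1 (0.0596) or WT 3 (0.0713). Of 17 stress transcription factors and other ATF4 or CHOP targets, 4 rose, 0 fell, and the median was 0.23. Nfe2l2, encoding the oxidative stress factor NRF2, had 30.8 ± 4.18 CPM in PS19 and 17.5 ± 1.35 in WT (log2 fold change 0.82, SE 0.12, adjusted p = 0.000347) and was called in 20 of 20 alternatives. Atf3, a stress-induced factor, had 3.71 ± 1.13 CPM in PS19 and 1.24 ± 0.674 in WT (log2 fold change 1.57, SE 0.42, adjusted p = 0.0198), and its call was lost without PS19 4 (0.0554) or WT 4 (0.0603).

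The remaining calls of that list were Cebpg, a C/EBP partner of ATF4, with 44.3 ± 0.437 CPM in PS19 and 39.7 ± 2.57 in WT (log2 fold change 0.16, adjusted p = 0.0294), and Bcl2l11, the cell death gene Bim, with 8.78 ± 0.802 CPM in PS19 and 6.90 ± 0.643 in WT (log2 fold change 0.35, adjusted p = 0.0206). Cebpg was lost without PS19 2 (0.0504), PS19 3 (0.0640), PS19 4 (0.0554) or WT 2 (0.0631), and Bcl2l11 without PS19 3 (0.0668) or WT 3 (0.0540). With the Rn45s share as a covariate, Edem1 and Nfe2l2 were still called, and the other 10 pathway genes called in PS19 minus WT were not, with an adjusted p of 0.0662 to 0.356. Over all genes the calls came to 431 in that fit, against 1803 without the covariate. The share was 0.873 to 3.65% in PS19 and 2.85 to 4.48% in WT, so the fit cannot fully tell it apart from genotype. A call kept or lost there does not say whether the share had a part in it. The log2 fold changes of those 10 genes in that fit were 0.42 (Creb3l1), 0.66 (Eif2ak2), 0.17 (P4hb), 0.41 (Sdf2l1), 0.17 (Herpud2), 0.25 (Psat1), -0.21 (Wars), 1.35 (Atf3), 0.19 (Cebpg) and 0.27 (Bcl2l11). Microglia and astrocyte markers rose in the same comparison, as given above, and their part was not tested for any of these genes.

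In PS19/C3aR KO minus PS19, beside 0.252% of all genes, 1 of the 108 genes tested in the 7 pathway lists was called. Over all 16657 genes, 2416 had an unadjusted p below 0.05 in the edgeR test, the background for the unadjusted counts below. Phgdh, the entry enzyme of serine synthesis, fell to 68.5 CPM in PS19/C3aR KO, against 85.1 CPM in PS19 (log2 fold change -0.31, SE 0.06, adjusted p = 0.0421), opposite in sign to Atf4. Its call held in 8 of 20 alternatives and was lost without PS19 1 (0.105), PS19 2 (0.0797), PS19 3 (0.109) or PS19 4 (0.0851) and without PS19/C3aR KO 2 (0.0961), 3 (0.0616), 4 (0.0878) or 5 (0.0830). In the same comparison 0 of 8 astrocyte markers had a positive fold change (median -0.27, 6 with an unadjusted p below 0.05), 0 of 8 oligodendrocyte markers had one (median -0.29, 4 with an unadjusted p below 0.05) and edgeR called 0 of either list. Their part in this result was not tested. Of the 12 aminoacyl-tRNA synthetases 0 were called by edgeR, 11 had a positive fold change, 7 had an unadjusted p below 0.05 and the median was 0.25. Aars, the alanine enzyme, averaged 204 CPM in PS19/C3aR KO and 171 CPM in PS19 (log2 fold change 0.25, SE 0.06, adjusted p = 0.0575), and Cars, the cysteine enzyme, averaged 53.4 and 39.4 CPM in the same groups (0.44, SE 0.12, adjusted p = 0.1). Of the 22 ER chaperones 0 were called by edgeR, 6 had a positive fold change, 4 had an unadjusted p below 0.05 and the median was -0.07. Of the 17 amino acid genes of the ATF4 programme, Phgdh among them, 10 had a positive fold change and the median was 0.06. In the edgeR test 7 of the 17 had an unadjusted p below 0.05.

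Averaged over both tau comparisons, with 13.7% of all genes called, the 7 lists gave 13 higher and 2 lower of 108 genes tested, close to that share. Atf6b, a relative of the sensor ATF6, fell: it averaged 69.0 CPM in PS19/C3aR KO and 69.05 in PS19, against 76.5 in C3aR KO and 75.4 in WT (log2 fold change -0.14, SE 0.04, adjusted p = 0.0184), and it was called in 28 of 29 alternatives, the exception being library totals alone (0.0917). Wars fell as well (-0.23, adjusted p = 0.00116), and Edem1 (0.29), Eif2ak2 (0.60), Nfe2l2 (0.58), P4hb (0.13), Psat1 (0.17), Atf3 (1.25) and Cebpg (0.12) rose, each called in 29 of 29 alternatives. The other 6 higher genes lost the call in part of them, being called in 23 (Bcl2l11), 16 (Nupr1), 13 (Herpud2), 12 (Creb3l1) and 10 (Slc38a2) of 29 and in 9 of 28 (Gdf15). Among the 10 stress genes themselves Dnajb9 was called in 28 of 29 alternatives for this average.

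Among libraries of 1 genotype the called pairs linked 6 of the 10 genes: Atf4 with Chac1 and Asns, and Xbp1 with Hspa5 and Herpud1. Each library's log2 CPM was taken as its deviation from the mean of its genotype, and the 45 pairs of genes were compared over 20 libraries by a permutation test within genotypes (100000 resamples, two-sided, Benjamini-Hochberg adjusted over the 45). Of these pairs 5 were called, all positive. Atf4 correlated with Chac1 (r = 0.83, permutation p = 0.00105, adjusted p = 0.0118, rho = 0.79) and with Asns (r = 0.77, permutation p = 0.00086, adjusted p = 0.0118, rho = 0.76), and Chac1 with Asns (r = 0.83, permutation p = 0.00024, adjusted p = 0.0054, rho = 0.82). The adjusted permutation p of rho was 0.0255, 0.0177 and 0.0063 for these pairs. Without the 2 libraries farthest from the median of the first gene, r was 0.81, 0.77 and 0.73. Within the 10 libraries labelled C3aR KO these r were 0.51, 0.45 and 0.64, and in the other 10 libraries, which include WT 4, WT 5 and PS19 4, they were 0.90 for each pair.

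Xbp1 correlated with Hspa5 (r = 0.86, permutation p = 0.00003, adjusted p = 0.00135, rho = 0.74 with adjusted p = 0.0128) and with Herpud1 (r = 0.78, permutation p = 0.00428, adjusted p = 0.0385, rho = 0.64). Without PS19 2 and WT 5, r was 0.72 for Hspa5 and 0.48 for Herpud1, so that the relation with Herpud1 rests on those libraries, and its rho did not pass (adjusted p = 0.0782). Hspa5 and Herpud1 had r = 0.62 (permutation p = 0.0189, adjusted p = 0.122). Of Atf4, Chac1 and Asns with Xbp1 and Hspa5, r was -0.25 to -0.47, and with Herpud1 it was 0.105, -0.10 and -0.02, none of them called. In the 10 libraries labelled C3aR KO, Atf4 with Xbp1 was 0.25 and Xbp1 with Chac1 was 0.55. Trib3 had r = 0.66 with Chac1 (permutation p = 0.00932, adjusted p = 0.0699; rho = 0.71, adjusted p = 0.0298), and Dnajb9, Ddit3 and Ddit4 had no called partner among the 10. All points share the depth and normalisation of their library.

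**Figure D4:**
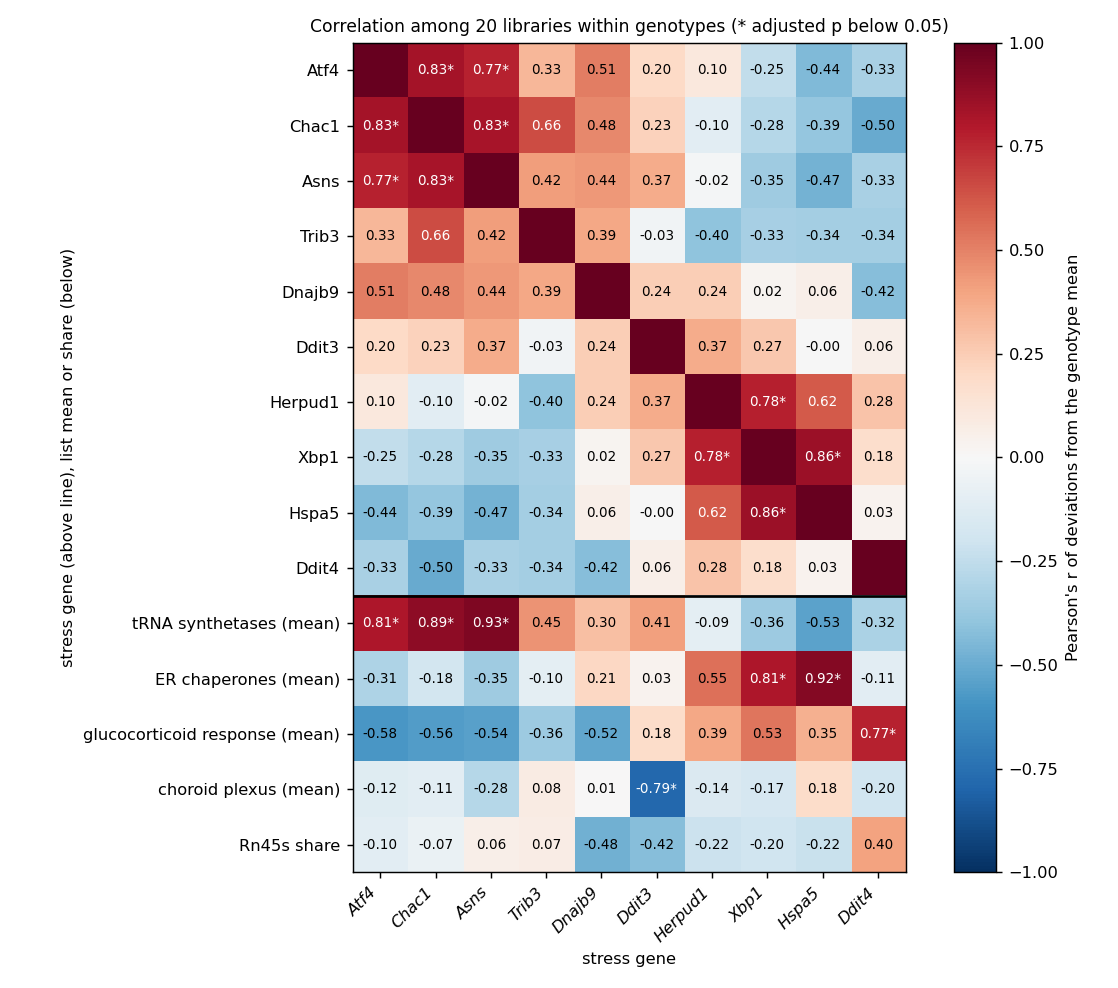
Pearson's r (colour scale and printed values) of log2 CPM deviations from the genotype mean over 20 libraries, for each pair of the 10 genes above the line and for 4 list means and the Rn45s share below it; a star marks an adjusted p below 0.05. Stars join Atf4, Chac1 and Asns with each other and with the tRNA synthetases, Xbp1 with Hspa5 and Herpud1, and Xbp1 and Hspa5 with the ER chaperones, while Herpud1 has none with Hspa5 (0.62) or the chaperones (0.55).

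The same deviations were set against the mean log2 CPM of 4 gene lists and the Rn45s share, 50 relations chosen after the values had been seen. The mean of the 12 tRNA synthetases correlated with Atf4 (r = 0.81, permutation p = 0.00055, adjusted p = 0.00458), Chac1 (r = 0.89, permutation p = 0.00009, adjusted p = 0.00112) and Asns (r = 0.93, permutation p = 0.00002, adjusted p = 0.0005), with rho of 0.80, 0.86 and 0.91 (adjusted permutation p = 0.00575, 0.00267 and 0.00125). Without the 2 libraries farthest from each gene's median, r was 0.83, 0.81 and 0.89. PS19 4 lay highest above its genotype mean for both Asns and the synthetases. The mean of the 22 ER chaperones correlated with Xbp1 (r = 0.81, permutation p = 0.00003, adjusted p = 0.0005, rho = 0.73 with adjusted p = 0.00325) and Hspa5 (r = 0.92, permutation p = 0.00002, adjusted p = 0.0005, rho = 0.87 with adjusted p = 0.00125), with r of 0.73 and 0.89 without PS19 2 and WT 5. Within the 10 libraries labelled C3aR KO and within the other 10, r for Hspa5 was 0.94 in each.

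Ddit4 correlated with the mean of 14 glucocorticoid response genes (r = 0.77, permutation p = 0.00257, adjusted p = 0.0184, rho = 0.64 with adjusted p = 0.0469), and r was 0.61 without PS19 5 and WT 5, the highest libraries of their genotypes for Ddit4. Ddit3 was negatively related to the mean of 10 choroid plexus markers (r = -0.79, permutation p = 0.00024, adjusted p = 0.0024, rho = -0.77 with adjusted p = 0.0055, r = -0.79 without PS19 5 and C3aR KO 1). The summed level of those markers, which come from an epithelium beside the hippocampus, ran from 35.4 to 4408 CPM in PS19/C3aR KO, 77.0 to 4485 in PS19, 26.5 to 3372 in C3aR KO and 37.6 to 2132 in WT. When the fit also held the choroid plexus score, Ddit3 was called in PS19 minus WT (log2 fold change 0.34, adjusted p = 0.00397) and for the average PS19 effect (0.22, adjusted p = 0.00615). With the Rn45s share in its place, Ddit3 was 0.11 (adjusted p = 0.662) and 0.11 (adjusted p = 0.392) there. With the choroid plexus score Atf4 in PS19/C3aR KO minus PS19 was 0.52 (adjusted p = 0.0508). No relation of the 10 genes with the Rn45s share was called. For Dnajb9 r with that share was -0.48 (adjusted permutation p = 0.218), and -0.68 with CPM from library totals alone (adjusted permutation p = 0.039), and for Ddit4 it was 0.40 (adjusted permutation p = 0.212).

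**Figure D5:**
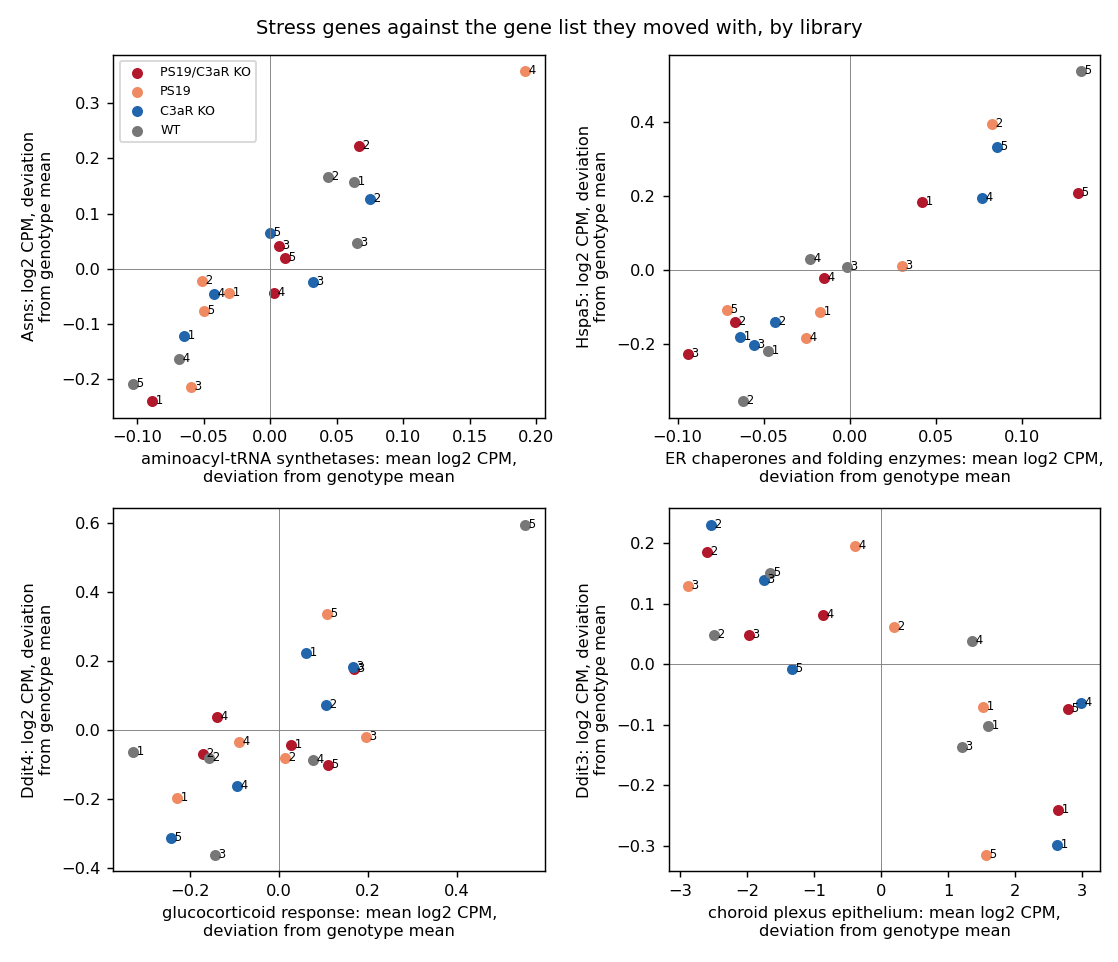
Log2 CPM of 4 stress genes (vertical axes) against the mean log2 CPM of a gene list (horizontal axes), both as deviations from the genotype mean, 1 point per library, coloured by genotype and numbered by replicate. Asns rises with the tRNA synthetases (r = 0.93), Hspa5 with the ER chaperones (r = 0.92) and Ddit4 with glucocorticoid response genes (r = 0.77), while Ddit3 falls with choroid plexus markers (r = -0.79).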

How the data were processed

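Hippocampal RNA was prepared with an RNeasy Mini kit, TopHat 2.0.9 placed the read pairs on mm10, and htseq-count summed them over the exons of each gene, per the labels' protocols. The submitters' processing notes also name DESeq2, with no step given for it. The deposited files hold raw counts per gene, with no normalization by the authors. Neither the strand setting nor the annotation release is stated in the sources used here. Lines at the end of each file that summarise unassigned pairs were left out: pairs that met no annotated exon came to 17.4 to 25.4%, and pairs that met more than 1 gene to 1.39 to 1.64%. Groups and replicate numbers come from the titles. No label says that libraries come from separate animals or names a batch, so p-values measure the spread between libraries, which may be technical.

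All 20 libraries entered 1 edgeR 4.0.16 quasi-likelihood fit (R 4.3.3) with genotype as the only factor, TMM normalization and filterByExpr with a minimum count of 10 and total of 15, leaving 16657 genes. A gene was called where its Benjamini-Hochberg adjusted p over those genes was below 0.05. CPM are scaled to TMM library sizes, and SE is the log2 fold change over the square root of F. The median SE over all genes was 0.10 in PS19 minus WT. Within groups, every pair of libraries differed beyond sampling noise (chi-square per degree of freedom 8.62 to 104), so none was counted as a duplicate. The fit was tested on simulated data before use. Alternatives were RLE size factors, library totals alone, no filter, at least 1 CPM in 5 libraries, only the groups compared, a replicate block, the Rn45s share or a choroid plexus score as covariate, limma-voom (limma 3.58.1), DESeq2 1.42.0, and leaving out each library.

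The 10 genes, the lists and the rule for named genes (all 10, C3ar1 and Prnp, and of each pathway list up to 4 called genes with the lowest p) were chosen with earlier results of these data known. Of 227 listed genes, 222 matched the files as written and 5 by a synonym. Aars, Cars, Creld2 and Pdia6 were named after their values were seen. Promoters and positions are from RefSeq, GRCm38.p6.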

Additional observations from a re-analysis of the deposited data

Results flagged for a closer look

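In 40 sets of 5 libraries (each of the 10 genes in each genotype), 1 library stood far from the other 4 by Dixon's test in 4 sets, and chance alone marks about 1 set in 20. Dnajb9 was 37.0 CPM in PS19/C3aR KO 1, against 38.8 to 39.2 CPM in the other 4 libraries of that group. Trib3 was 1.11 CPM in PS19/C3aR KO 5, against 0.720 to 0.828 CPM in the others. Ddit4 was 70.8 CPM in WT 5, against 36.5 to 44.8 CPM in the others, and Herpud1 was 57.2 CPM in the same library, against 42.2 to 45.9 CPM. WT 5 also had the highest Xbp1 level of all 20 libraries.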

How the results depend on the processing

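No called direction was reversed by any alternative run. In PS19 minus WT, the number of the 10 genes called (1) was 0 with no filter, with only the groups compared, with the replicate block and with the Rn45s share as covariate, 2 with the choroid plexus score, and 0 to 2 when single libraries were left out. In PS19/C3aR KO minus PS19 the number (1) was 0 with library totals alone, with only the groups compared, with the Rn45s share and with the choroid plexus score, 2 with the replicate block, limma-voom and DESeq2, and 0 to 2 when single libraries were left out. For the average PS19 effect (1) it was 0 with the Rn45s share, 2 with the choroid plexus score and DESeq2, and 1 to 2 when single libraries were left out. The cause was not tested. The remaining comparisons kept 0 called genes under every alternative run. Of 1374 recomputed fold changes of the 10 genes, 24 lost a call and 14 gained one. With CPM from library totals alone, 2 of 95 correlations gained a call, Dnajb9 with the Rn45s share and Herpud1 with the ER chaperones (r = 0.62, adjusted permutation p = 0.0393), and 0 lost one.

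Calls over all genes moved too. With the Rn45s share they came to 431 against 1803 in PS19 minus WT and to 9 against 42 in PS19/C3aR KO minus PS19, where DESeq2 gave 439, limma-voom 89, the groups compared alone 10, library totals alone 24, and single libraries left out 6 (PS19/C3aR KO 5) to 481 (PS19 5). Without PS19 3 or WT 4 the PS19 minus WT count was 1190 or 1201. In C3aR KO minus WT, against 10, it was 5 for the groups compared alone and without C3aR KO 5, 3 with the Rn45s share and 58 with DESeq2. In PS19/C3aR KO minus C3aR KO, against 1, it was 158 with DESeq2 and 1 to 68 with single libraries left out, and for the interaction, against 2, it was 1 with limma-voom and 5 without PS19 5. With library totals alone PS19 minus WT split into 1795 higher and 176 lower genes, against 1250 and 553. The replicate block gave 212 calls in PS19/C3aR KO minus PS19, with Asns added (adjusted p = 0.0436), and 22 against 1 in PS19/C3aR KO minus C3aR KO. The replicate numbers were not taken to pair libraries: of 5 same-numbered pairs, 1 had a correlation over 0.1 in PS19 minus WT, 3 in C3aR KO minus WT, 4 in PS19/C3aR KO minus PS19 and 3 in PS19/C3aR KO minus C3aR KO, and 1, 2, 2 and 2 libraries in these comparisons correlated best with their own number. Trib3 did not pass the stricter filter and has no value there. With 5 libraries a group, the median SE of 0.10 limits what small folds can be told from 0.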

Other observations

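When each lead gene was compared with all other 16656 genes over the same 20 deviations, a search made after the values had been seen, the 5 closest to Hspa5 were Manf (r = 0.95), Sdf2l1 (r = 0.94), Creld2 (r = 0.92), Cdk2ap2 (r = 0.91) and Pdia6 (r = 0.89), with rho of 0.84 to 0.91, and Xbp1 ranked 10. Manf, Sdf2l1, Creld2 and Pdia6 serve protein folding in the ER. Of these, Manf, Sdf2l1, Creld2 and Pdia6 had a permutation p adjusted over all genes of 0.0476 and Cdk2ap2 of 0.0686. At an adjusted p below 0.05, 7 genes were positively and 3 negatively related to Hspa5. The nearest to Atf4 were Apoa2 (r = 0.92), Snrpd1 (r = 0.85), Mrpl42 (r = 0.85), the tyrosine tRNA synthetase gene Yars (r = 0.85) and Chac1 (r = 0.83), with Asns ranked 18 and none past the adjustment. The nearest to Ddit4 were Pdk4 (r = 0.92), Arrdc2 (r = 0.90), Sgk1 (r = 0.88), Rhou (r = 0.87) and Tsc22d3 (r = 0.85), of which Pdk4, Sgk1 and Tsc22d3 were in the glucocorticoid list, and none passed the adjustment. The smallest permutation p that 100000 resamples can give was 1e-05, too large for a single gene to pass over 16656 genes. For Atf4 its nearest gene, Apoa2, reached that smallest value (adjusted permutation p = 0.0555), so the lack of calls is no measure of weak relations. For Ddit4 the nearest gene, Pdk4, had a permutation p of 2e-05 (adjusted permutation p = 0.333), above the smallest value. For Ddit3, 253 genes were positively and 380 negatively related at an adjusted p below 0.05, and the nearest were Rpl27a (r = 0.88) and Ubac1 (r = 0.87).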
